A study of Homo sapiens with 12 samples.

Results

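The genes described here are 10 that act in the licensing of replication origins and in the MCM helicase: ORC1, CDC6, CDT1, MCM2, MCM3, MCM4, MCM5, MCM6, MCM7 and MCM10. They were taken by symbol, with earlier results of these data known. Each is 1 row of the 28008 gene rows counted in an experiment of MUC1-C silencing and 1 row of the 25435 rows counted in an experiment of MUC1-C overexpression. All 10 passed the filter on low counts in both experiments. LNCaP is an established androgen receptor-positive prostate cancer cell line. LNCaP-ER cells were derived from it by continuous exposure to the androgen receptor antagonist enzalutamide, and LNCaP-ER/tet-MUC1shRNA cells carry a MUC1 shRNA in the doxycycline (DOX)-inducible pLKO-tet-puro vector. For silencing, these cells received 0.1% DMSO as vehicle (3 libraries) or 500 ng/ml DOX (3 libraries) for 7 days, so that both groups carry the resistance and the shRNA vector and differ in the agent given. No group treated with DOX without the shRNA was analysed here, so an effect of DOX itself cannot be told apart from one of silencing. In the overexpression experiment, the groups were LNCaP cells (3 libraries) and LNCaP/MUC1-C OE cells (3 libraries), which express exogenous MUC1-C, per the study's methods from a vector with the CMV promoter. The control columns of that table are named vector while the labels say wild-type, so whether the controls carried an empty vector is not settled.

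Before a cell enters S phase, the origin recognition complex (ORC) binds DNA at future origins, CDC6 joins it, and CDT1 brings in the ring-shaped MCM2 to MCM7 hexamer, which is loaded in an inactive form. Cyclin-dependent and DBF4-dependent kinases, CDC45, the GINS complex and MCM10 then turn the loaded hexamer into the moving replicative helicase, while geminin (GMNN) and the ubiquitin ligases built on SKP2 and on CUL4 with DTL keep CDT1 from loading origins again. Most of these genes are transcribed in late G1 and S phase under E2F factors, so their transcripts are widely read as marks of cycling cells. In bulk RNA, fewer cycling cells and less RNA of these genes per cell cannot be told apart.

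Start-site regions are shown because these genes are known as targets of E2F factors. RefSeq promoter sequences (GRCh38.p14) were matched for 8 of the 10 genes, each running from 250 bases before to 50 bases after the annotated start. They were searched on both strands for 4 E2F words (TTTCCCGC, TTTCGCGC, TTTGCCGC and TTTGGCGC), the CCAAT box (CCAAT), the E-box CACGTG and the CHR element TTTGAA. The E2F words overlap one another where TTTGGCGC or TTTCGCGC is followed by GAAA, since the reverse strand then holds another of them. An E2F word was found in 6 of the 8 genes (MCM2, MCM3, MCM6, CDC6, CDT1 and, at 1 of its 3 annotated starts, MCM7), against 3.31% of all 35116 promoter windows. A CCAAT box was found in 6 of the 8 genes, against 34.6% of all windows. CACGTG was found in 2 of the 8, MCM2 and MCM7, against 7.26%, and TTTGAA in 0 of the 8, against 15.2%. A gene was counted where any of its windows matched, while the shares are of single windows, so the units differ. MCM6 held 4 E2F words, the most of the 8 genes, and 2 CCAAT boxes. Windows of 5 genes follow, from 155 bases before to 16 bases after the annotated start, written 5′ to 3′ with E2F words and CCAAT boxes on either strand in capitals. ORC1, CDT1 and MCM10 are the members with the largest increase under MUC1-C overexpression, and MCM6 and MCM3 are hexamer subunits, of which MCM6 rose there and MCM3 did not pass the test.
ORC1 (chr1:52404408-52404578, minus strand): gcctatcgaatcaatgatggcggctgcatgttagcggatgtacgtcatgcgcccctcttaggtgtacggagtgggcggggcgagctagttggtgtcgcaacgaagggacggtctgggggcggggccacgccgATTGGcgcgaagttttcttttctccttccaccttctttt
CDT1 (chr16:88803634-88803804, plus strand): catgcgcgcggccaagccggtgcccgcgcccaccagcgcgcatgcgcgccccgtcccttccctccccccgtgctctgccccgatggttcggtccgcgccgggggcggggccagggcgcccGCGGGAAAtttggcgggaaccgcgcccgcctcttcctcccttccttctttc
MCM10 (chr10:13161403-13161573, plus strand): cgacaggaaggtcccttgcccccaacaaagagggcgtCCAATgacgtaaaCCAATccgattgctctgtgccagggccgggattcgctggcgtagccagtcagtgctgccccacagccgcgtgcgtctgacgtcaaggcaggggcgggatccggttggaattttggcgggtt
MCM6 (chr2:135876428-135876598, minus strand): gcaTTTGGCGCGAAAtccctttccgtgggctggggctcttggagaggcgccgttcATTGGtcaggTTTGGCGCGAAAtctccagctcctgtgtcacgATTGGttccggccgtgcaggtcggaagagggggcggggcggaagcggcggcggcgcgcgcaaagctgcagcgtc
MCM3 (chr6:52284727-52284897, minus strand): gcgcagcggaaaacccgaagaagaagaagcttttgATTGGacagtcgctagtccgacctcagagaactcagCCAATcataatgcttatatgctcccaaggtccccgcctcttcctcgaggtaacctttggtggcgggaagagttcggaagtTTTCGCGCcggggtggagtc
The MCM6 window holds its E2F words in 2 pairs, starting 152 and 90 bases before the start site, and CDT1 holds 1 word starting 35 bases before it. ORC1 and MCM10 hold CCAAT boxes but no exact match to the E2F words searched. A match describes the letters only.

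Total counts per library lay between 28045894 and 45807989 for silencing and between 13806856 and 19208944 for overexpression. Every replicate pair differed by more than sampling noise, with a chi-square of 2.20 to 61.7 times its degrees of freedom, and each library was taken as 1 sample. The cells were cultured in triplicate, and p-values measure the spread between these cultures, which may be technical. The shRNA target, MUC1, had 26, 10 and 13 counts in the vehicle libraries, by replicate number, and 3, 42 and 8 counts in those labelled DOX. The library labelled DOX replicate 2 thus held more MUC1 counts than any vehicle library, and this count goes against its label. At CD68 and TMPRSS2, picked after their values were seen, it lay with the other DOX libraries. CD68 was 21.7 CPM (library size), against 22.9 and 22.3 in DOX replicates 1 and 3 and 5.02 to 7.45 in vehicle. TMPRSS2 was 1046 CPM, against 1008 and 1032 in those DOX libraries and 535 to 565 in vehicle. The library labelled DOX replicate 2 also listed 11.2% of genes at 0, against 28% to 38.1% in the other 5 libraries. What set this library apart was not tested. Counts of calls and the fold changes of the members in the silencing experiment are therefore given with and without it. With all 6 libraries, MUC1 differed by a log2 fold change of 0.12 (SE 0.93, edgeR quasi-likelihood adjusted p = 0.935), and by -1.83 without that library (edgeR adjusted p = 0.0617). In the overexpression experiment, MUC1 rose from 30, 25 and 31 counts in LNCaP to 9168, 9959 and 12622 in LNCaP/MUC1-C OE, a log2 fold change of 8.91 (SE 0.12).

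Luminal prostate markers were present in the silencing experiment, with a summed level of 4743 to 4847 CPM over 9 genes in vehicle and 5555 to 5995 CPM in the libraries labelled DOX. They were lower in the other table, at 373 to 388 CPM in LNCaP and 89.2 to 99.98 CPM in LNCaP/MUC1-C OE, in which KLK3, KLK2 and FOLH1 were at 0 in all 3 libraries. Of 6 markers of cells in G2 and M phase (MKI67, TOP2A, CCNB1, CDK1, PLK1 and AURKA), 4 fell with DOX and 4 rose with MUC1-C. Over all genes tested, 14.5% fell with DOX and 33.2% rose with MUC1-C. CDK1 and AURKA did not pass the test with DOX, nor CCNB1 and AURKA with MUC1-C. The summed level of the 6 markers went from 1016 to 1461 CPM in vehicle to 411 to 811 CPM with DOX, and from 1856 to 1955 CPM in LNCaP to 2123 to 2228 CPM in LNCaP/MUC1-C OE. Of the DOX libraries, the one labelled replicate 2 had the lowest sum, and without it the DOX range was 578 to 811 CPM and 4 of the 6 markers fell. In the fit without that library, 5243 of all 14848 genes tested were called, 2679 of them higher. The part of cell cycle distribution in the results that follow was not tested.

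Silencing of MUC1-C was examined first. With DOX, CDT1 was the 1 member of the 10 that fell past the threshold (edgeR's quasi-likelihood test, adjusted p under 0.05 over all 14683 genes tested), and no member rose. Over all genes tested, 14.5% fell and 12.8% rose. The log2 fold changes of the members ranged from -0.58 for CDT1 to 0.05 for MCM6, with 9 of 10 below 0 and a median of -0.40, against -0.02 over all genes tested. Of the 10, 4 had an unadjusted p under 0.05 by the same test, a share close to that of all genes tested (5901 of 14683). Groups did not overlap for 2 members, CDT1 and MCM7, both lower with DOX, against 23.0% of all genes lower without overlap, and 0 members were higher without overlap, against 21.2%. Without the library labelled DOX replicate 2, CDT1 remained the only member called, 7 of 10 values were below 0 and the median was -0.13. In that fit, 5243 of all 14848 genes tested were called, 2679 of them higher, with a median of -0.01.

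CDT1, the factor that delivers the hexamer to the origin, stood at 32.6, 33.8 and 31.7 CPM (normalized by edgeR's TMM method) in vehicle replicates 1 to 3 and at 24.9, 18.9 and 21.6 CPM in the libraries labelled DOX replicates 1 to 3. Every DOX library was below every vehicle library, and the vehicle libraries lay within a narrow range. The means were 32.7 ± 1.06 and 21.8 ± 3.0 CPM (SD, n = 3 each), and the log2 fold change was -0.58 (SE 0.12, edgeR quasi-likelihood test with Benjamini-Hochberg adjustment, adjusted p = 0.0101). When the library labelled DOX replicate 2 was omitted, it was -0.46 (edgeR adjusted p = 0.0139). CDC6, the ATPase that loads the hexamer together with ORC, was 91.9, 51.4 and 49.7 CPM in vehicle and 70.2, 30.2 and 53.2 CPM with DOX. The groups overlapped, with vehicle replicate 1 well above the other libraries, and the log2 fold change of -0.33 (SE 0.32) did not pass the test (edgeR adjusted p = 0.470; -0.03 without the library labelled DOX replicate 2). ORC1, the ATPase subunit of ORC that is most tied to the cell cycle, was 33.7, 27.8 and 24.4 CPM in vehicle and 26.3, 15.6 and 22.3 CPM with DOX. The highest DOX library lay above the lowest vehicle library, and the log2 fold change was -0.42 (SE 0.20, edgeR adjusted p = 0.144), and -0.21 without the library labelled DOX replicate 2 (edgeR adjusted p = 0.323).

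None of the 6 hexamer subunits passed the test with DOX, and their 95% intervals overlapped. The log2 fold changes lay between -0.51 and 0.05. MCM7 was 130.2, 106 and 103 CPM in vehicle and 97.7, 58.3 and 85.5 CPM with DOX. All its DOX libraries were below all its vehicle libraries, and its log2 fold change was -0.49 (SE 0.18, edgeR adjusted p = 0.0731). MCM3 was 109, 76.8 and 75.7 CPM in vehicle and 77.5, 49.9 and 56.4 CPM with DOX, a log2 fold change of -0.51 (SE 0.19, edgeR adjusted p = 0.0787). MCM2 was 91.5, 74.9 and 66.7 CPM in vehicle and 68.2, 38.2 and 59.0 CPM with DOX, a log2 fold change of -0.50 (SE 0.20, edgeR adjusted p = 0.102). In both MCM3 and MCM2, 1 DOX library, replicate 1, lay above the lowest vehicle library.

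MCM6 was 76.1, 55.5 and 51.5 CPM in vehicle and 78.0, 43.1 and 68.2 CPM with DOX, a log2 fold change of 0.05 (SE 0.22, edgeR adjusted p = 0.892). Its 95% interval ran from -0.45 to 0.55, so changes of either sign remain within it. MCM5 was 64.6, 44.8 and 45.2 CPM in vehicle and 59.3, 32.3 and 50.9 CPM with DOX (log2 fold change -0.12, SE 0.22, edgeR adjusted p = 0.731). MCM4 was 224, 144 and 146 CPM in vehicle and 209, 90.3 and 146 CPM with DOX (log2 fold change -0.21, SE 0.28, edgeR adjusted p = 0.617). The groups overlapped for all 3 of these subunits. MCM10, which binds the assembled helicase and is needed for its activation, was 51.6, 35.5 and 34.4 CPM in vehicle and 47.1, 17.6 and 29.4 CPM with DOX, and its groups overlapped too (log2 fold change -0.37, SE 0.31, edgeR adjusted p = 0.408).

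The spread within each group had a common shape across the members. Vehicle replicate 1 was the highest vehicle library for 9 of the 10 genes. DOX replicate 1 was the highest and the library labelled DOX replicate 2 the lowest of the DOX libraries for all 10, and the latter lay below every vehicle library for all 10. This is the library in which MUC1 was highest. When it was left out, MCM6 had a log2 fold change of 0.29 (edgeR adjusted p = 0.184), MCM7 of -0.27 (edgeR adjusted p = 0.107) and MCM3 of -0.35 (edgeR adjusted p = 0.181). MCM2 was then at -0.26 (edgeR adjusted p = 0.175) and MCM10 at -0.05 (edgeR adjusted p = 0.875), and MCM4 and MCM5 turned from below 0 to 0.08 and 0.13. When vehicle replicate 1 was left out, MCM4, MCM5 and CDC6 turned to 0.03, 0.08 and 0.02. The count of members called was 3 without DOX replicate 1, when MCM3 (-0.72, edgeR adjusted p = 0.0286) and MCM7 (-0.66, edgeR adjusted p = 0.0418) joined CDT1.

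**Figure D1:**
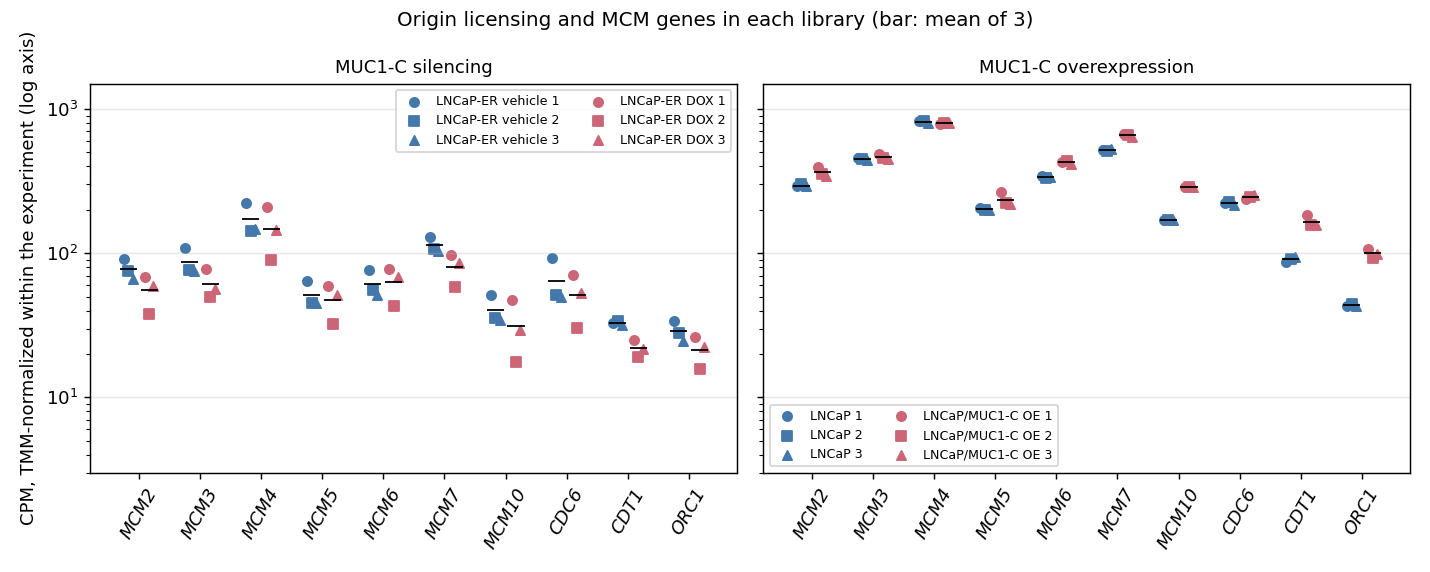
CPM (TMM-normalized within each experiment, log axis) of the 10 genes in each of the 12 libraries, with the mean of 3 as a bar and the replicate number as the shape. In the silencing panel the square of DOX replicate 2 is the lowest DOX point of every gene, while in the overexpression panel the groups of ORC1, CDT1 and MCM10 stand well apart.

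Counts scaled by TMM, by median-of-ratios factors or by library size each left 9 of the 10 members below 0. On the TPM values that were deposited for the same libraries, compared as log2(TPM + 1) with limma, the median of all genes tested was shifted by 0.45 and 95% of the called genes were higher with DOX, against 46.8% with TMM-normalized counts. On that scale 9 of the 10 members were above 0, CDT1 was at -0.03, and MCM6 was called higher (0.54, limma adjusted p = 0.0395), and each member except MCM6 lay below the median of all genes. The small structural RNAs RN7SK, RN7SL1, RN7SL2 and RPPH1 together held 69.7%, 71.8% and 75.2% of all TPM in the vehicle libraries and 63.0%, 52.5% and 68.1% in the DOX libraries. With the median of each library subtracted from log2(TPM + 1), 9 of 10 members were below 0, the median was -0.38 and CDT1 was the 1 member called (-0.50, limma adjusted p = 0.00743). When the 4 small RNAs were left out and each library was rescaled, an alternative chosen after seeing the data, CDT1 was again the 1 member called, 9 of 10 members were below 0 and the median was -0.34.

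**Figure D2:**
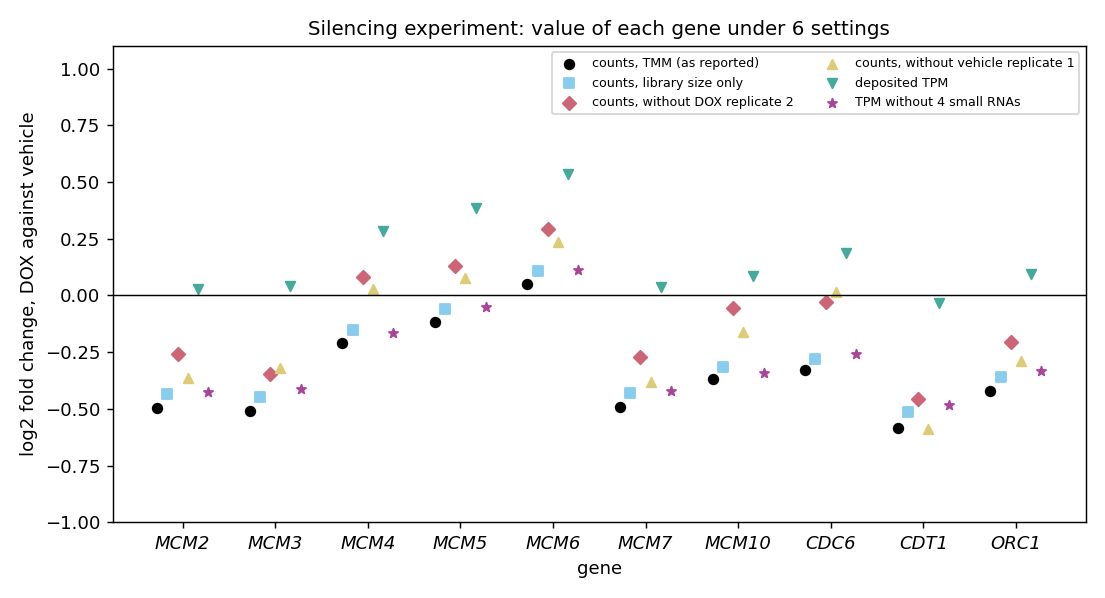
Log2 fold change, DOX against vehicle, of each of the 10 genes under 6 settings (TMM counts, library size only, 2 settings that leave out 1 library each, the deposited TPM, and TPM without 4 small RNAs). The deposited TPM values lie above all other settings for every gene, and CDT1 is below 0 in all 6.

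The make-up of the hexamer transcripts does not depend on such scaling, and it was compared as the share of each subunit in the MCM2 to MCM7 sum, per gene length (lengths taken from the ratio of counts to TPM in the silencing table). In each experiment 13 such ratios were compared by an exact two-sided permutation test, for which the smallest p with 3 against 3 libraries is 0.1, so none can pass 0.05. MCM6 made up 10.7%, 10.7% and 10.2% of the sum in vehicle and 13.1%, 13.3% and 14.3% with DOX. The DOX libraries were all higher, the one labelled replicate 2 included, and the means were 10.6% ± 0.276 and 13.6% ± 0.632 (SD, n = 3, exact permutation p = 0.1). MCM5 also took a larger share, 13.8% ± 0.345 against 15.8% ± 0.619, without overlap. MCM2 went from 14.7% ± 0.907 to 12.9% ± 0.493 and MCM7 from 20.6% ± 1.33 to 18.1% ± 0.953, both without overlap. MCM3 and MCM4 overlapped between the groups.

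By level per length, MCM4, MCM7 and MCM3 were the most abundant of the 10 members in vehicle, at 22.3%, 20.6% and 18.1% of the hexamer sum, and the ranges of MCM4 and MCM7 overlapped. MCM6 was the least abundant subunit of the hexamer in vehicle at 10.6%, below MCM5 in every library. CDT1 stood at 8.52%, ORC1 at 6.06% and MCM10 at 5.74% of the same sum, the last 2 not separated. With DOX, MCM2 instead of MCM6 was the lowest subunit, at 12.9%, below MCM6 in every library although their ranges overlapped. Of ratios between partners, ORC1 relative to the mean of ORC2 to ORC5 was lower with DOX without overlap (0.481 ± 0.0926 against 0.330 ± 0.0490, exact permutation p = 0.1). ORC6 was not part of this mean, and its own log2 fold change with DOX was -0.77, against -0.42 for ORC1. GMNN relative to CDT1, the inhibitor over its target, was higher without overlap (1.58 ± 0.161 against 1.84 ± 0.0175, exact permutation p = 0.1). In all, 3 of the 13 ratios were higher, 3 lower and 7 overlapped. Of all single genes tested, 21.2% were higher and 23.0% lower without overlap. The shares have a common sum and so depend on one another.

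**Figure D3:**
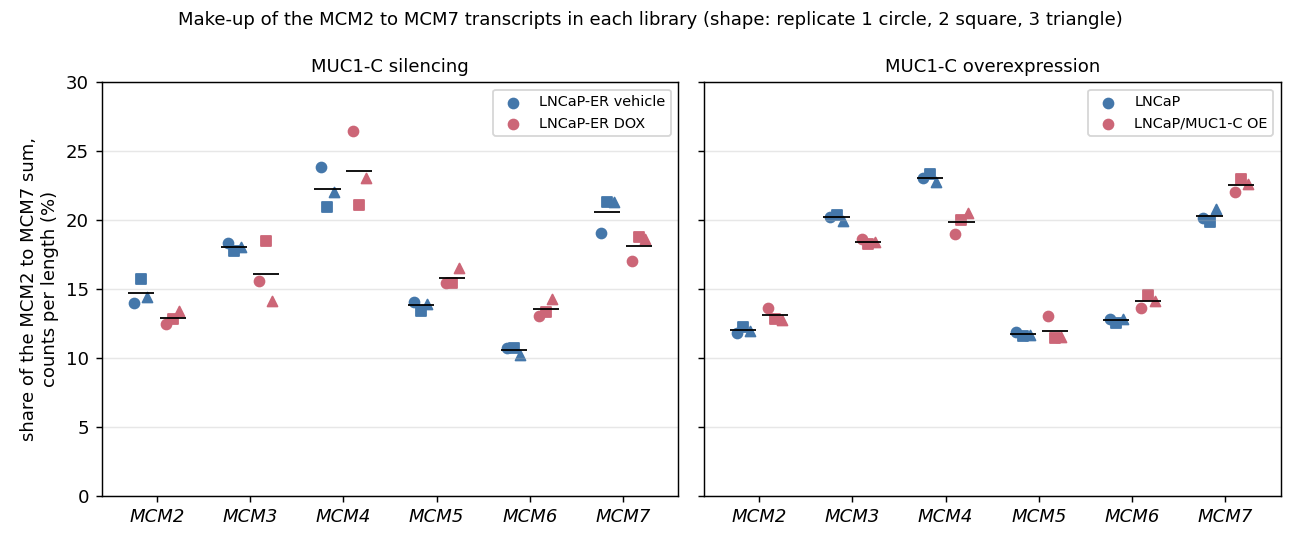
Share of each subunit in the MCM2 to MCM7 sum (percent, counts per length) in each library, with the mean of 3 as a bar and the replicate number as the shape. MCM6 is separated upwards with DOX, from 10.6% to 13.6% on average, and MCM4 downwards with MUC1-C overexpression, from 23.0% to 19.8%.

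Overexpression of MUC1-C was examined next. Of the 10 members, 8 rose in LNCaP/MUC1-C OE and none fell, by edgeR's quasi-likelihood test over 13836 genes, and the 8 that rose were also the 8 whose groups did not overlap. Changes were widespread in this experiment, with 33.2% of all genes called higher and 34.1% lower, 34.4% higher and 35.9% lower without overlap, the last against 0 of the members. The median log2 fold change of the members was 0.32, against -0.01 over all genes tested. The increases were largest in ORC1, CDT1 and MCM10 and smaller in the hexamer, where MCM3 and MCM4 did not pass the test.

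ORC1 was 43.1, 44.3 and 43.0 CPM in LNCaP replicates 1 to 3 and 108, 92.2 and 99.5 CPM in LNCaP/MUC1-C OE replicates 1 to 3. Every LNCaP/MUC1-C OE library was above every LNCaP library, and the increase was 2.30-fold (log2 1.20, SE 0.06, edgeR adjusted p = 1.86e-11). CDT1 was 86.9, 91.1 and 94.2 CPM in LNCaP and 185, 156 and 157 CPM in LNCaP/MUC1-C OE, a 1.83-fold increase (log2 0.87, SE 0.06, edgeR adjusted p = 1.95e-09). MCM10 was 170.4, 170.0 and 171 CPM in LNCaP and 289, 289 and 287 CPM in LNCaP/MUC1-C OE, a 1.69-fold increase (log2 0.76, SE 0.04, edgeR adjusted p = 7.52e-11). The replicates of MCM10 were the tightest of the 10 genes. CDC6 changed least among the loading factors, from 223, 228 and 215 CPM to 239, 244 and 254 CPM (log2 0.15, SE 0.05, edgeR adjusted p = 0.0104), and without LNCaP replicate 3 it missed the threshold (edgeR adjusted p = 0.0746).

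Within the hexamer, MCM7 went from 521, 509 and 529 CPM to 667, 664 and 639 CPM (log2 fold change 0.34, SE 0.04, edgeR adjusted p = 1.66e-06). MCM6 went from 346, 333 and 338 CPM to 428, 438 and 416 CPM (log2 0.33, SE 0.04, edgeR adjusted p = 2.62e-06). MCM2 went from 292, 301 and 290.5 CPM to 395, 355 and 345 CPM (log2 0.31, SE 0.05, edgeR adjusted p = 3.93e-05). For each of these 3 subunits every LNCaP/MUC1-C OE library was above every LNCaP library. MCM5 rose less, from 207, 199.6 and 199 CPM to 264, 222 and 218 CPM (log2 0.22, SE 0.06, edgeR adjusted p = 0.00604), with replicate 1 above the other two. Without LNCaP/MUC1-C OE replicate 1 its value was 0.12 (edgeR adjusted p = 0.0143). MCM3 was 455, 453 and 439.7 CPM in LNCaP and 489, 458 and 452 CPM in LNCaP/MUC1-C OE (log2 0.05, 95% interval -0.04 to 0.15, edgeR adjusted p = 0.302). MCM4 was 819, 822 and 795 CPM in LNCaP and 789, 795 and 799 CPM in LNCaP/MUC1-C OE (log2 -0.03, 95% interval -0.12 to 0.05, edgeR adjusted p = 0.498). The groups of MCM3 and MCM4 overlapped.

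Scaling by library size alone moved the median of all genes by -0.16 and the share of called genes that were higher from 49.4% to 32.3%. On that scale ORC1 (1.05), CDT1 (0.72), MCM10 (0.60), MCM7 (0.18), MCM6 (0.18) and MCM2 (0.16) were still called higher, MCM4 was called lower (-0.19, edgeR adjusted p = 0.000569), MCM5 (0.06) was not called, and MCM3 (-0.10) and CDC6 (-0.01) turned below 0 without passing the test.

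**Figure D4:**
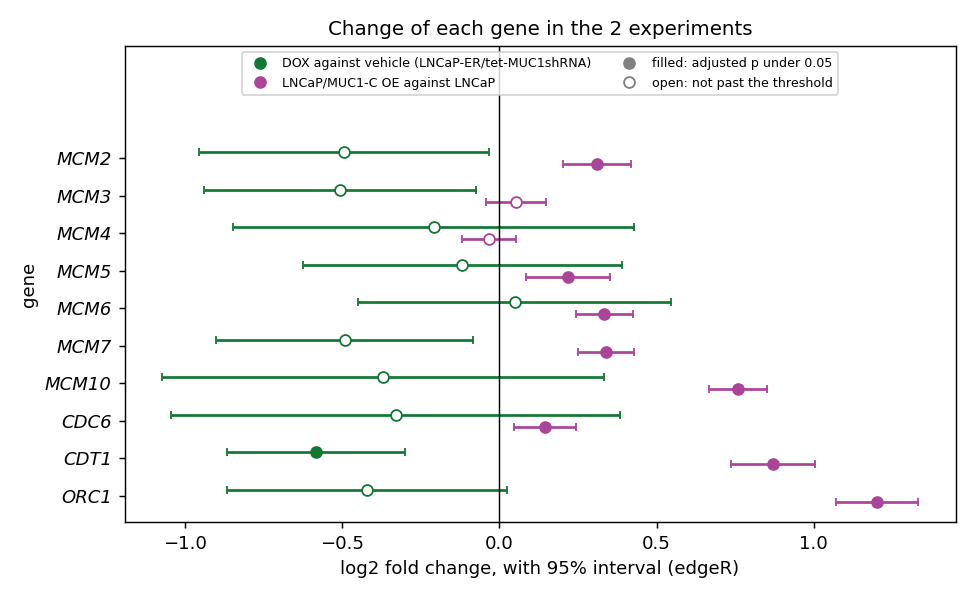
Log2 fold change with its 95% interval (edgeR) of each gene with DOX against vehicle and in LNCaP/MUC1-C OE against LNCaP. Filled points passed an adjusted p of 0.05, which held for CDT1 alone with DOX and for 8 of 10 genes with MUC1-C overexpression, with TMM-normalized counts.

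The shares per length differed within the hexamer here as well. MCM4 took 23.0%, 23.3% and 22.8% of the MCM2 to MCM7 sum in LNCaP and 18.98%, 19.99% and 20.55% in LNCaP/MUC1-C OE, lower without overlap (exact permutation p = 0.1). MCM3 went from 20.2% ± 0.220 to 18.4% ± 0.205, also lower without overlap. MCM7 (20.3% to 22.5%), MCM6 (12.7% to 14.1%) and MCM2 (12.02% to 13.1%) took larger shares without overlap, and MCM5 overlapped. MCM7 replaced MCM4 as the most abundant member, above it in every LNCaP/MUC1-C OE library, whereas MCM4 was above MCM7 in every LNCaP library. Against the same sum, ORC1 went from 1.98% ± 0.0378 to 3.999% ± 0.242, CDT1 from 4.99% ± 0.247 to 8.01% ± 0.528 and MCM10 from 5.25% ± 0.0574 to 7.82% ± 0.241, each without overlap. CDC6 overlapped, at 10.5% and 10.3%. ORC1 relative to the mean of ORC2 to ORC5 went from 0.576 ± 0.00255 to 1.20 ± 0.111. GMNN relative to CDT1 went from 2.98 ± 0.0287 to 2.45 ± 0.365, lower without overlap, although GMNN itself rose. Of the 13 ratios, 7 were higher, 3 lower and 3 overlapped, each with an exact permutation p of 0.1 where the groups did not overlap. Of all single genes tested here, 34.4% were higher and 35.9% lower without overlap. The shares have a common sum and so depend on one another.

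The MCM6 share was higher without overlap in both experiments. The MCM2 and MCM7 shares were lower with DOX and higher with MUC1-C overexpression, and so was ORC1 relative to the mean of ORC2 to ORC5. GMNN relative to CDT1 was higher with DOX and lower with MUC1-C overexpression. The remaining ratios, those of MCM3, MCM4 and MCM5 included, overlapped between the groups in at least 1 experiment. These comparisons share no libraries, and the difference between the experiments was not tested.

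The wider replication machinery was followed in a list of 58 further genes by role. With DOX, all 58 passed the filter, 18 fell and 2 rose (edgeR, against 14.5% and 12.8% of all genes tested), with a median log2 fold change of -0.40, the same as the median of the members to 2 decimals. Without the library labelled DOX replicate 2, 16 fell and 4 rose, with a median of -0.24. In that fit, 5243 of all 14848 genes tested were called, 2679 of them higher. In LNCaP/MUC1-C OE, 57 of the 58 passed the filter (MCMDC2 did not), 35 rose and 10 fell (against 33.2% and 34.1% of all genes tested), with a median of 0.22. The role counts that follow are descriptions, each to be read against the calls over all genes of the same fit.

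The other ORC subunits, ORC2 to ORC6, which bind DNA beside ORC1, showed no called change with DOX (0 of 5 by edgeR). Of the 5, 1 had an unadjusted p under 0.05, against 5901 of all 14683 genes tested. This was ORC6, with every DOX library below every vehicle library (log2 -0.77, SE 0.26, edgeR adjusted p = 0.0534). Its log2 fold change was below that of every member, and was -0.50 without the library labelled DOX replicate 2 (edgeR adjusted p = 0.0719). Without the library labelled DOX replicate 2, ORC3 was called higher (log2 0.42, edgeR adjusted p = 0.00976). In LNCaP/MUC1-C OE, ORC3 (log2 0.27, edgeR adjusted p = 0.00013) and ORC5 (0.18, edgeR adjusted p = 0.0114) rose, while ORC4 (-0.23, edgeR adjusted p = 0.00126) and ORC6 (-0.17, edgeR adjusted p = 0.0431) fell. All 4 values are smaller than the 1.20 of ORC1.

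Among 10 regulators of licensing, 3 fell and 1 rose with DOX, with and without the library labelled DOX replicate 2. Over all genes, 14.5% fell and 12.8% rose with that library. Without it, 5243 of 14848 genes were called, 2679 of them higher. CUL4B, a cullin scaffold of the ligase that degrades CDT1, was 181, 168 and 177 CPM in vehicle and 116, 93.4 and 104 CPM with DOX (log2 -0.74, SE 0.10, edgeR adjusted p = 0.00167; -0.63 without the library labelled DOX replicate 2). SKP2, the F-box protein of the other CDT1 ligase, fell (log2 -0.56, edgeR adjusted p = 0.0059), and DDB1, the adaptor of CUL4 ligases, rose (log2 0.32, edgeR adjusted p = 0.0466). GMNN, the inhibitor of CDT1, was 25.4, 24.2 and 20.1 CPM in vehicle and 20.6, 15.4 and 17.8 CPM with DOX, and its log2 fold change of -0.37 did not pass the test (SE 0.15, edgeR adjusted p = 0.0935). In LNCaP/MUC1-C OE, 5 of the 10 regulators rose and 1 fell. DTL, the substrate receptor that brings CDT1 to CUL4, showed the largest increase of the whole list, from 94.9, 99.2 and 97.9 CPM to 296, 277 and 264 CPM (log2 1.52, SE 0.05, edgeR adjusted p = 9.94e-14). GMNN rose from 117, 121 and 125 CPM to 168, 189.6 and 183 CPM (log2 0.57, SE 0.05, edgeR adjusted p = 3.33e-08). CUL4A, the paralog of CUL4B, fell by 0.17 (edgeR adjusted p = 0.0283).

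Of the genes of helicase activation and origin firing, all 14 had log2 fold changes below 0, from -1.002 to -0.20, and 6 of them fell (CDC45, TOPBP1, CDC7, DBF4, MTBP and WDHD1). Their median was -0.62, and without the library labelled DOX replicate 2 all 14 were still below 0, 5 fell, WDHD1 no longer being called (edgeR adjusted p = 0.0562), and the median was -0.39. CDC45, which joins the loaded hexamer to form the active helicase, was 16.9, 14.2 and 11.7 CPM in vehicle and 8.94, 6.30 and 8.09 CPM with DOX (log2 -0.87, SE 0.19, edgeR adjusted p = 0.0111; -0.71 without the library labelled DOX replicate 2). TOPBP1, a scaffold for CDC45 and GINS recruitment, fell by 0.44 (edgeR adjusted p = 0.0124). In LNCaP/MUC1-C OE, 10 of the 14 rose and 2 fell. WDHD1, a fork protein that links the helicase to polymerase alpha, rose from 126, 118 and 125 CPM to 236, 247 and 237 CPM (log2 0.97, SE 0.05, edgeR adjusted p = 1.11e-11). CDC7, the catalytic subunit of the DBF4-dependent kinase, rose by 0.54 (edgeR adjusted p = 1.01e-08). GINS4 (-0.47, edgeR adjusted p = 5.51e-07) and MTBP (-0.19, edgeR adjusted p = 0.0226) fell.

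Of 26 fork genes, 8 fell and 1 rose with DOX, with a median of -0.32. Without the library labelled DOX replicate 2, 7 fell and 2 rose, with a median of -0.20, where POLA1 was no longer called and RPA2, a subunit of the single-strand binding complex, was called higher (log2 0.34, edgeR adjusted p = 0.0436). RFC3, a subunit of the clamp loader, was 69.6, 59.9 and 62.7 CPM in vehicle and 29.3, 27.4 and 23.4 CPM with DOX (log2 -1.26, SE 0.12, edgeR adjusted p = 0.00046). PRIM1, the catalytic primase subunit, was 44.7, 42.5 and 37.7 CPM in vehicle and 22.7, 13.1 and 16.6 CPM with DOX (log2 -1.25, SE 0.19, edgeR adjusted p = 0.00247). Both had lower log2 fold changes than any of the 10 members and stayed called without the library labelled DOX replicate 2, at -1.25 and -1.06. POLD4, a small subunit of polymerase delta, rose with DOX, from 13.3, 13.2 and 10.2 CPM to 19.3, 19.9 and 23.7 CPM (log2 0.78, SE 0.15, edgeR adjusted p = 0.00697). In LNCaP/MUC1-C OE, 16 fork genes rose and 5 fell. POLD1 (log2 1.16, edgeR adjusted p = 7.27e-12) and POLE2 (1.15, edgeR adjusted p = 2.25e-11), subunits of the delta and epsilon polymerases, rose with the smallest p of the role. POLD4 fell from 8.32, 7.76 and 8.41 CPM to 4.13, 3.44 and 3.05 CPM (log2 -1.21, SE 0.14, edgeR adjusted p = 9.52e-07), and POLE4 fell by 0.58 (edgeR adjusted p = 3.18e-06).

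MCM8 and MCM9, paralogs that form a separate helicase in recombination, were measured beside the hexamer. MCM8 was 47.9, 42.2 and 44.6 CPM in vehicle and 34.3, 22.4 and 33.0 CPM with DOX, and fell (log2 -0.59, SE 0.16, edgeR adjusted p = 0.0253; -0.38 without the library labelled DOX replicate 2). MCM9 did not pass the test with DOX (log2 -0.12, SE 0.12, edgeR adjusted p = 0.488). In LNCaP/MUC1-C OE, MCM8 rose by a log2 fold change of 0.22 (edgeR adjusted p = 0.000676) and MCM9 by 0.17 (edgeR adjusted p = 0.0479).

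**Figure D5:**
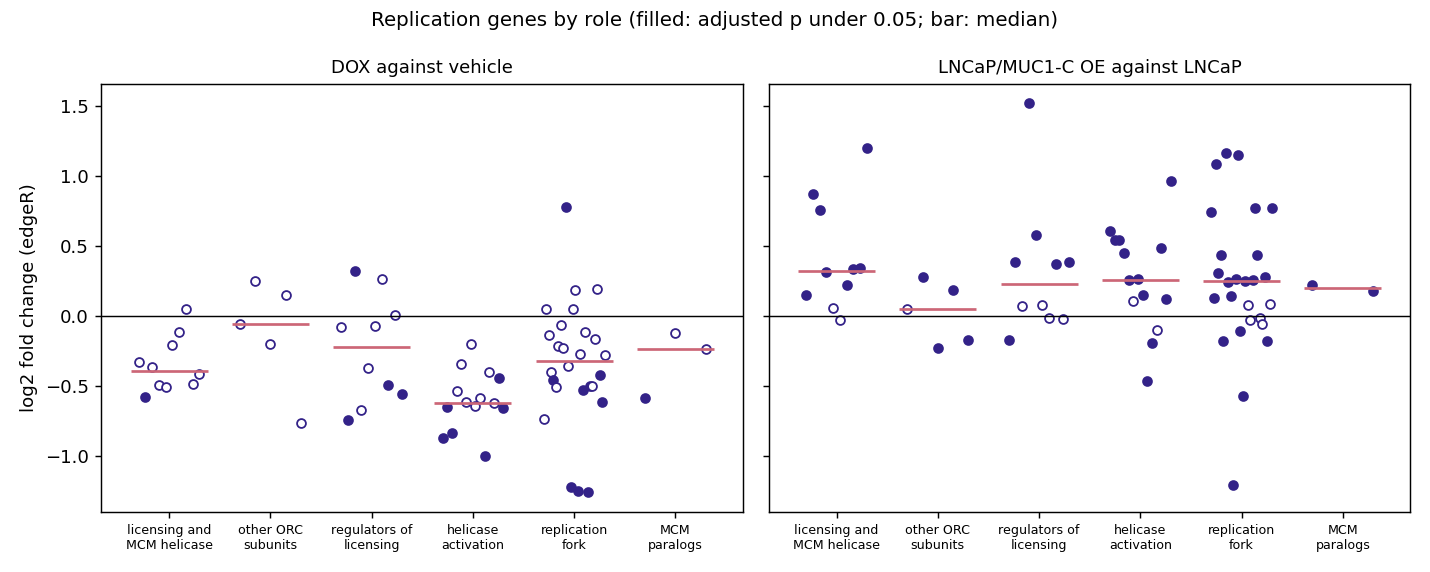
Log2 fold change (edgeR) of the 10 members and of the wider list by role, with DOX against vehicle and in LNCaP/MUC1-C OE against LNCaP, with the median of each role as a bar. All 14 genes of helicase activation lie below 0 with DOX, and with MUC1-C overexpression each role holds called genes above 0.

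Of the members, MCM2 and MCM7 overlap other genes in the GENCODE annotation of GRCh38, from which the overlap lengths were taken. The positions printed are those of RefSeq (GRCh38.p14). MCM2 (chr3:127598411-127622436, plus strand) overlaps 45 bases of TPRA1 and 2331 bases of the antisense gene AC023593.1 on the opposite strand. MCM7 (chr7:100092728-100101397, minus strand) overlaps 392 bases of AP4M1 on the opposite strand and holds MIR25, MIR93 and MIR106B in its own strand. The libraries were made with a stranded kit, and the strand setting of the counting is not given in the sources used here, so reads in these overlaps may have been assigned to either gene.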

How the data were processed

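Per the labels, total RNA was made into stranded mRNA libraries. The submitters' processing notes name STAR and DESeq2 with GRCh38 (hg38); versions, annotation and counting settings are not given in the sources used here. The authors deposited whole-number counts per gene symbol for both experiments, without normalization, and TPM for the silencing experiment, whose gene lengths are of unstated origin. The overexpression table also held 12 columns of other samples, which were not used. Its columns were assigned to samples from the cell line, the MUC1-C name and the replicate number in both.

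Each experiment was fitted on its own with edgeR 4.0.16 (R 4.3.3): TMM, filterByExpr, robust quasi-likelihood tests, and Benjamini-Hochberg adjustment over all genes tested, with a threshold of 0.05. The scripts were tested on simulated data. Depth is given with the results, and the replicate number limits the precision. Alternatives were DESeq2 1.42.0, scaling by library size or by median-of-ratios factors, omission of the filter, a minimum of 10 counts in each library, a replicate block, leaving out each library, and limma 3.58.1 on log2(TPM + 1) or log2(TPM + 0.1), with or without a filter of 1 TPM in 3 libraries or with the library median subtracted. Ratios were compared by exact permutation (scipy 1.17.1). The main fit treated the libraries as unpaired.

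The members and lists were chosen with earlier results of these data known. The genes named were the 10 members, MUC1, GMNN, MCM8, MCM9, for each role and direction the 2 called genes of smallest p, and 5 genes most like the hexamer. MCMDC2, ORC3 and ORC6 with DOX, POLA1, RPA2 and the 4 remaining firing genes called with DOX were named after their values were seen. So were the markers at 0, CD68, TMPRSS2 and the 4 small RNAs. Marker lists covered luminal, basal, neuroendocrine, fibroblast, leukocyte, endothelial and G2/M genes.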

Additional observations from a re-analysis of the deposited data

How the results depend on the processing

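With DOX, 170 values of single members under alternatives gave 125 of the same direction and call, 3 weaker, 9 stronger and 33 reversed. Of the reversals, 24 came from 3 uncentred TPM settings, in which all genes were shifted upwards, 9 from left-out libraries and 0 from TPM with the library median subtracted. With MUC1-C overexpression 120 such values gave 115, 2, 1 and 2. The count of members called with DOX was 2 by DESeq2, 0 on unfiltered TPM and 1 to 3 when 1 library was left out (3 without DOX replicate 1). The wider list had 20 calls with DOX, against 13 on TPM with a pseudocount of 1 or 0.1 (10 higher and 3 lower), 3 on unfiltered TPM and 8 to 23 when 1 library was left out (13 without vehicle replicate 3, 8 without DOX replicate 3). On log2(TPM + 1), filtered or not, the reversed values were 0.0281 for MCM2, 0.0416 for MCM3, 0.285 for MCM4, 0.388 for MCM5, 0.0371 for MCM7, 0.0861 for MCM10, 0.186 for CDC6 and 0.0961 for ORC1. With a pseudocount of 0.1 they were 0.0314, 0.045, 0.296, 0.412, 0.0397, 0.0981, 0.202 and 0.114. Leaving out 1 library at a time gave ranges that include both signs for MCM4 (-0.544 to 0.0829), MCM5 (-0.314 to 0.130), MCM6 (-0.137 to 0.293), CDC6 (-0.630 to 0.0159) and MUC1 (-1.83 to 0.620). With library size only, MUC1-C overexpression gave -0.101 for MCM3 and -0.00804 for CDC6. The causes were not tested. Deviations of same-numbered libraries had correlations of -0.07 to 0.09 with DOX and -0.15 to -0.03 with MUC1-C. With 3 libraries per group these values cannot exclude a pairing, and the main fit used none. A replicate block gave 5 members called with DOX (MCM2, MCM3, MCM7, CDT1 and ORC1), 30 calls in the wider list and -0.62 for MUC1. Only replicate 1 of the silencing experiment correlated best with its own number. The 3 libraries per group and, in the silencing experiment, their spread limit what could be called.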

Other observations

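The pattern of the hexamer over the 12 libraries was set beside that of every gene tested in both experiments. The measure was the root mean square difference between a gene's log2 CPM, centred within each experiment, and the median of MCM2 to MCM7. Over 11682 genes the median of this difference was 0.34. The genes outside the lists with the smallest differences were KPNA2 (0.07), an importin that carries proteins into the nucleus, MSH6 (0.08), a mismatch repair protein, CDK2 (0.08), the S-phase kinase, E2F1 (0.08), the transcription factor of the G1 to S transition, and RBMXL1 (0.09), a gene related to RBMX. Of the members, MCM5 (0.08), MCM2 (0.09) and MCM7 (0.09) lay closest to their own median, which they help to set. MCM10 (0.23), CDT1 (0.29) and ORC1 (0.35) lay farther from it, ORC1 no nearer than the median gene. The 5 genes were chosen for this pattern, so their own changes in these libraries are not given as results.

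The 10 members together made up 418 to 916 CPM (library size) in the silencing experiment and 3282 to 3639 CPM in the overexpression experiment, 2 tables that were not normalized together, so the difference was not tested. Of the other cell type lists, the basal, neuroendocrine and endothelial lists had summed levels under 7 CPM in every library of the silencing experiment. Their highest sums, 2.78, 4.21 and 6.77 CPM, were all in the library labelled DOX replicate 2. The fibroblast list summed to 9.39 to 16.7 CPM in vehicle and 6.90 to 11.9 CPM with DOX. The leukocyte list summed to 5.02 to 7.45 CPM in vehicle and 22.4 to 22.9 CPM with DOX, carried by CD68. PTPRC and CD3E were at 0 in vehicle and highest in the library labelled DOX replicate 2, at 0.392 and 0.285 CPM. In the overexpression experiment, the neuroendocrine list summed to 26.9 to 29.5 CPM in LNCaP and 23.3 to 30.2 CPM in LNCaP/MUC1-C OE, and the fibroblast list to 47.5 to 51.9 and 36.9 to 39.9 CPM. The basal, leukocyte and endothelial lists summed to at most 2.13 CPM there. The part of these cell types in the results was not tested.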
